A study of Homo sapiens with 12 samples.

Results

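The MYC family and its MAX partners were followed as 10 genes chosen by name: the activators MYCN, MYC and MYCL, their shared partner MAX, and the repressors MXD1, MXI1, MXD3, MXD4, MNT and MGA. All 10 were found among the 58735 rows of the count tables of both cell lines. RNA was sequenced from KELLY, a human neuroblastoma line with amplified MYCN, and SK-N-AS, a neuroblastoma line without that amplification, after 24 h with Erastin or with its solvent DMSO. Erastin inhibits the cystine/glutamate antiporter and induces ferroptosis, an iron-dependent form of cell death. The dose was 1 µM for KELLY and 2 µM for SK-N-AS, so that line and dose cannot be told apart in any comparison of the responses. The 4 groups were KELLY with DMSO, KELLY with Erastin, SK-N-AS with DMSO and SK-N-AS with Erastin, each with 3 samples that the study's design calls biological replicates. All cells were kept in the same RPMI medium with serum and antibiotics. Each line is an established tumor line, and every difference between the lines rests on 1 line of each kind.

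MYC, MYCN and MYCL bind DNA only when paired with MAX, at a short sequence known as the E-box, and raise transcription of genes for growth, ribosome assembly and cell division. MXD proteins, MNT and MGA also pair with MAX, occupy the same sequence and recruit repressor complexes, so the balance of activators and repressors on MAX sets the output of the network. In neuroblastoma, amplification of MYCN marks a high-risk group of tumors, and lines without it often express MYC instead.

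Total counts ranged from 24169796 to 28251514 in the KELLY samples and from 25696149 to 29835670 in the SK-N-AS samples. The labels call the KELLY cells neuronal and the SK-N-AS cells neuroblasts. All 10 adrenergic neuroblastoma markers averaged at least 1 CPM (counts scaled to library size) in every group, with a summed level of 4393 to 7284 CPM in KELLY with DMSO and 975 to 1066 CPM in SK-N-AS with DMSO. The 9 markers of the mesenchymal state summed to 153 to 174 CPM in KELLY with DMSO and to 4816 to 5041 CPM in SK-N-AS with DMSO. Among 8 blood cell markers, CD3E was at 0 in every group, and 1 marker, PTPRC, made up nearly all of a summed 454 to 621 CPM in the SK-N-AS samples while it was at 0 in KELLY. Libraries also differed in a trend of abundance with GC content, and values from fits with this trend removed are given for part of the members and comparisons.

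The E-box CACGTG, which reads the same on both strands, was searched in the RefSeq promoter windows (GRCh38.p14), which run from 250 bases before a gene's start to 50 bases after it. Of the 9 members whose windows were examined (MYC was not), 2 held the motif, MXD4 and MNT, against 2396 of 27305 genes overall (8.77%). In a list of known MYC-activated genes the share was 27 of 54, while it was 0 of 5 for a list of genes known to be repressed by MYC or MYCN. The sites of MXD4 and MNT are shown because these repressors differed most between the lines among the partners of MAX, and those of ODC1, GNL3 and RRP9 because these, among the 5 MYC-activated genes with the largest calls between the lines, held the motif, which the windows of CDC25A and TMEM97 at the head of that list did not. Capitals mark the motif, each sequence is written 5′ to 3′ on the strand of the gene, and a match is a description of these letters only.
MXD4, chr4:2262332-2262357 (minus strand), first motif base at -238 from the start: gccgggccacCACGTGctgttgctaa
MNT, chr17:2401238-2401263 (minus strand), first motif base at -193: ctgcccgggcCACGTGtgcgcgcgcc
ODC1, chr2:10448026-10448051 (minus strand), first motif base at -29: gggccccgggCACGTGtgcggcgcgc
ODC1, chr2:10447992-10448017 (minus strand), first motif base at 5: cctgcggagaCACGTGgtcgccgagc
GNL3, chr3:52686028-52686053 (plus strand), first motif base at 6: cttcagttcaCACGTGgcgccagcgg
RRP9, chr3:51941894-51941919 (minus strand), first motif base at -5: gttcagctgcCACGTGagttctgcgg

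The levels of the activators were compared between the untreated lines, to find which MYC gene each line used. The lines carried opposite genes: KELLY transcribed MYCN almost alone and SK-N-AS transcribed MYC almost alone. MYCN lies at chr2:15940550-15947007 on the plus strand (GRCh38). It had 130503, 140263 and 145326 counts in the 3 KELLY samples with DMSO and 11, 7 and 11 counts in the 3 SK-N-AS samples with DMSO. Every KELLY sample was thus far above every SK-N-AS sample. In bulk RNA such as this, fewer cells that express a gene and less RNA of it per cell cannot be told apart. MYCN alone took between 0.512% and 0.572% of all counts in these KELLY libraries and ranked between 7 and 10 among all rows by count. The log2 fold change of KELLY over SK-N-AS was 13.81 (SE 0.21, adjusted p = 9.9e-09 in the quasi-likelihood test of edgeR, adjusted by the Benjamini-Hochberg method). The SE given with edgeR was derived from its test statistic. For MYCN it may be too small, as DESeq2 gave 13.81 with an SE of 0.31.

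MYC, the broadly expressed member of the family, had 15, 20 and 22 counts in KELLY with DMSO and 3987, 3661 and 3512 counts in SK-N-AS with DMSO. The groups did not overlap and the order of the lines was the reverse of that for MYCN, with a log2 fold change of -7.59 (SE 0.20, adjusted p = 5.0e-08, edgeR). MYCL, the member first known from small cell lung cancer, was low in each line, with 16, 21 and 17 counts in KELLY and 30, 39 and 31 in SK-N-AS. Its difference of -0.87 on the log2 scale (SE 0.33) had an adjusted p of 0.0457 in edgeR, and the call held in 6 of 15 alternative settings. It was lost without any 1 of 5 of the 6 libraries, namely KELLY with DMSO replicates 1 and 3 (adjusted p = 0.075 and 0.143, edgeR) and SK-N-AS with DMSO replicates 1, 2 and 3 (adjusted p = 0.0709, 0.186 and 0.0816, edgeR).

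To compare genes with each other, CPM values were divided by the length of each gene's annotated exons in kilobases (the RPKM scale). On this scale, in the DMSO samples, MYCN stood at 1919 ± 130 (SD, n = 3) in KELLY and at 0.133 ± 0.0275 (SD, n = 3) in SK-N-AS. The RPKM level of MYC was 0.118 ± 0.0200 (SD, n = 3) in KELLY and 23.2 ± 1.34 (SD, n = 3) in SK-N-AS. The dominant gene of each line therefore differed in height as well as in name, and the summed RPKM level of the 3 activators was 81.5-fold higher in KELLY. With the longest transcript in place of all exons as the length, that ratio was 52.5-fold. In the same samples the log2 ratio of MYCN to MYC per length was 14.00 ± 0.21 (SD, n = 3) for KELLY and -7.47 ± 0.37 (SD, n = 3) for SK-N-AS.

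**Figure D1:**
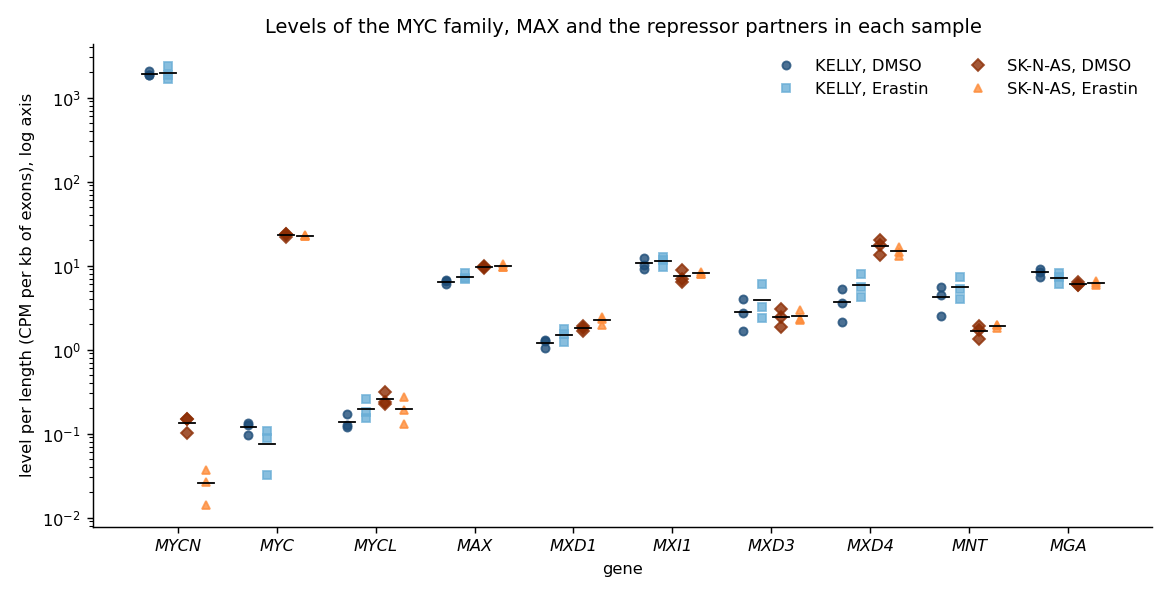
Level of each member (CPM per kilobase of exons, log axis) in each of the 12 samples, with symbols for the 4 groups and black bars for the group means (n = 3). MYCN lies near 1919 in KELLY and near 0.133 in SK-N-AS with DMSO, MYC shows the opposite order, and MAX and its repressor partners lie between 1.06 and 20.1 in the DMSO samples.

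MYCNOS, a long noncoding RNA transcribed from the strand opposite MYCN, shares 98 exonic bases with it (3.6% of the exons of MYCN). It had 2380, 3008 and 3015 counts in KELLY with DMSO and 0 in every SK-N-AS sample. Against a floor of 3 counts per library, it was at least 935-fold higher in KELLY. Each KELLY library with DMSO held between 46.6 and 54.8 counts of MYCN for 1 of MYCNOS. Whether counting used the strand was not given in the sources used here, so reads of the shared bases cannot be assigned to either gene.

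MAX, the partner shared by the activators and the repressors, went in the direction opposite to MYCN. It had 973, 1018 and 1199 counts in KELLY with DMSO and 1680, 1527 and 1564 in SK-N-AS with DMSO. All KELLY samples were below all SK-N-AS samples, with a log2 fold change of -0.57 (SE 0.13, adjusted p = 0.0046, edgeR), and the call held in all 15 alternatives. Per length, the activators stood at 298 ± 19.8 (SD, n = 3) times the level of MAX in KELLY and at 2.44 ± 0.0835 (SD, n = 3) times in SK-N-AS. MAX shares 822 exonic bases (13.1% of its exons) with FNTB on the opposite strand, and FNTB had 228 to 322 counts in the DMSO samples of the lines.

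The 4 MXD genes, which encode short repressors of the network, split between the lines. MXD4 had 377, 901 and 695 counts in KELLY with DMSO and 3753, 3023 and 2451 in SK-N-AS with DMSO. It was lower in KELLY without overlap, by -2.20 on the log2 scale (SE 0.32, adjusted p = 0.00033, edgeR). MXI1, also called MXD2, was higher in KELLY, with 1877, 1326 and 1732 counts against 1031, 1040 and 1392 in SK-N-AS.

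MXD1, the founding member of the repressors, had 210, 165 and 229 counts in KELLY and 314, 269 and 325 in SK-N-AS. The log2 fold changes of KELLY over SK-N-AS were 0.52 (SE 0.18, adjusted p = 0.0315, edgeR) for MXI1 and -0.58 (SE 0.17, adjusted p = 0.0165, edgeR) for MXD1. The MXI1 call was lost without KELLY replicate 3 or SK-N-AS replicate 1 or 2 with DMSO (adjusted p = 0.0767, 0.126 and 0.122, edgeR), and that of MXD1 without SK-N-AS replicate 3 with DMSO (adjusted p = 0.0543, edgeR). With the GC trend removed and all libraries kept, MXI1 was 0.62 (SE 0.10, adjusted p = 0.00029, edgeR) and MXD1 -0.50 (SE 0.13, adjusted p = 0.0048, edgeR). MXD3, the member tied to proliferating cells, had 205, 471 and 371 counts in KELLY and 389, 290 and 234 in SK-N-AS, and the groups overlapped (log2 fold change 0.22, SE 0.32, adjusted p = 0.564, edgeR). With the GC trend removed MXD3 was 0.28 (SE 0.14, adjusted p = 0.0933, edgeR). Its exons share 1148 bases (24.2%) with PRELID1 on the opposite strand and 926 bases (19.5%) with RAB24 on its own, so its count is uncertain.

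MNT and MGA, the large repressors of the network, were both higher in KELLY. MNT, which is present in dividing as well as resting cells, had 561, 1180 and 1120 counts in KELLY with DMSO and 454, 376 and 313 in SK-N-AS with DMSO. The lowest KELLY sample stood only just above the highest SK-N-AS sample, and the log2 fold change was 1.34 (SE 0.29, adjusted p = 0.0032, edgeR). With the GC trend removed it was 1.40 with a smaller error (SE 0.11, adjusted p = 1.3e-06, edgeR). MGA, the scaffold of a variant Polycomb complex, had 4695, 3650 and 4848 counts in KELLY and 3205, 2924 and 3402 in SK-N-AS. Its log2 fold change was 0.48 (SE 0.13, adjusted p = 0.0118, edgeR), and the call was lost without KELLY replicate 3 or SK-N-AS replicate 2 with DMSO (adjusted p = 0.0517 and 0.0704, edgeR). With the GC trend removed and all libraries kept, MGA was 0.53 (SE 0.07, adjusted p = 3.9e-05, edgeR).

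Across the members, 9 of 10 passed the threshold between the lines, 4 higher and 5 lower in KELLY, where 61.3% of all 17089 genes tested passed (30.9% higher and 30.3% lower). With the GC trend removed 9 of 10 passed as well, where 73.9% of all genes did, and DESeq2 called 8 of 10, without MYCL. The ranges of 9 members did not overlap between the lines, against 66.3% of all genes tested. The median log2 fold change of the members was -0.17 and that of all genes tested 0.02.

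The 6 repressor partners together differed less in sum than in makeup. With DMSO their summed RPKM level was 30.8 ± 1.69 (SD, n = 3) for KELLY and 36.3 ± 2.70 (SD, n = 3) for SK-N-AS, and the KELLY samples were all below the SK-N-AS samples. In KELLY the largest shares of this sum were those of MXI1, 34.7% ± 7.29, and MGA, 27.2% ± 4.27 (SD, n = 3). In SK-N-AS, MXD4 alone gave 46.5% ± 6.05 (SD, n = 3), against 11.8% ± 4.55 (SD, n = 3) in KELLY. MNT gave 13.4% ± 4.31 of the sum in KELLY and 4.56% ± 0.483 in SK-N-AS (SD, n = 3). Per length, the activators exceeded the 6 partners by 62.4 ± 2.07 times (SD, n = 3) in KELLY, whereas in SK-N-AS they stood at 0.649 ± 0.0243 times (SD, n = 3) the partners' sum. Both ratios use the length of all annotated exons and depend on that choice of length.

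**Figure D2:**
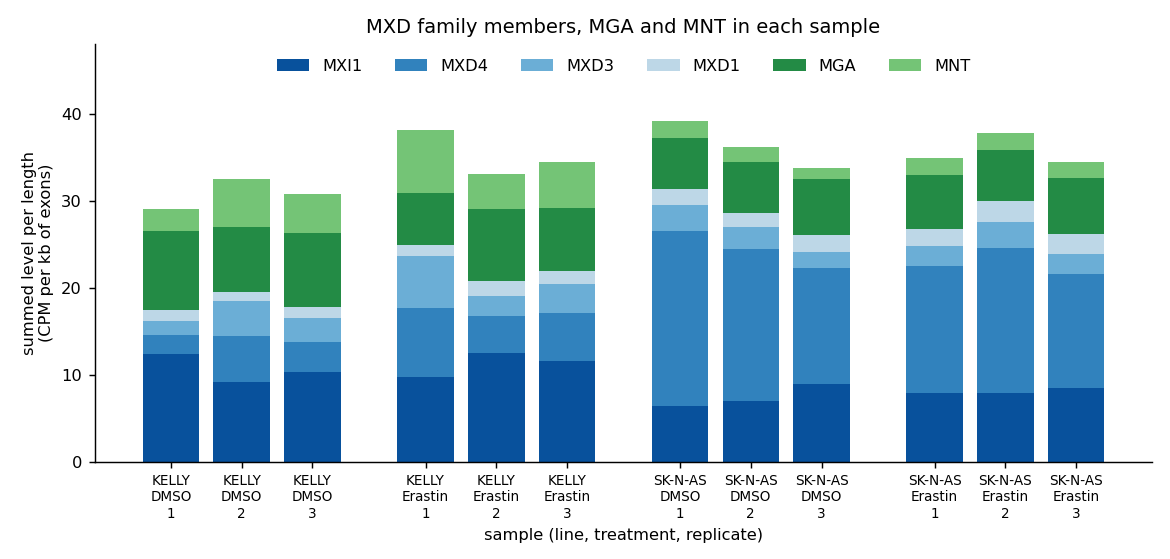
Stacked levels per length (CPM per kilobase of exons) of the 4 MXD genes in blue and of MGA and MNT in green, 1 bar for each of the 12 samples. The total is of like height in all bars (29.1 to 39.2 with DMSO), while MXD4 takes 46.5% of it in SK-N-AS and 11.8% in KELLY with DMSO.

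In the order of levels per length in KELLY with DMSO, MYCN was followed by MXI1, MGA and MAX, each apart from the next, and then by MNT, MXD4 and MXD3, whose ranges overlapped from neighbor to neighbor. MXD1, MYCL and MYC came last, and the ranges of MYCL and MYC overlapped. In SK-N-AS with DMSO the order was MYC, MXD4, MAX, MXI1 and MGA, each apart from the next, then MXD3, MXD1 and MNT with overlapping neighbors, then MYCL and at the end MYCN. These orders hold for the length of all exons. With the longest transcript as length, the mean of MAX (12.8) was above that of MGA (11.5) in KELLY with DMSO. In SK-N-AS with DMSO that of MNT (2.94) was then above that of MXD1 (2.06).

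The response of the members to Erastin was then examined in KELLY. No member passed the threshold. MYCN had 159802, 116651 and 141174 counts with Erastin, on either side of the 130503 to 145326 counts with DMSO, so that the groups overlapped. Its log2 fold change was 0.03 (SE 0.16, 95% interval -0.27 to 0.34, adjusted p = 0.934, edgeR). With the GC trend removed it was -0.24 (SE 0.13, adjusted p = 0.699, edgeR), and the groups did not overlap. The log2 deviations of MYCN from the mean of the line were then 0.40, -0.06 and 0.00 with DMSO and -0.13, -0.11 and -0.10 with Erastin, so that DMSO replicate 1 stood far above the other samples. Without Erastin replicate 1 it was -0.13 in the fit with no GC step.

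MYC had 16, 5 and 15 counts in KELLY with Erastin against 15 to 22 with DMSO, and MYCL had 22, 33 and 21 against 16 to 21. The groups of each gene overlapped, and their log2 fold changes were -0.63 (SE 0.49) and 0.51 (SE 0.36). MAX had 1249, 1148 and 1193 counts with Erastin. Scaled to library size, the Erastin samples all lay above the DMSO samples (43.2 to 51.3 CPM against 37.8 to 42.0 CPM), as in 8.54% of all genes tested in which the groups did not overlap. The log2 fold change of MAX was 0.20 (SE 0.15, adjusted p = 0.770, edgeR), and with the GC trend removed the groups overlapped at 0.09 (SE 0.09).

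MXD4 had 1326, 739 and 1044 counts with Erastin against 377, 901 and 695 with DMSO, which overlapped. Its log2 fold change was 0.68 (SE 0.36, adjusted p = 0.770, edgeR) and 0.44 (SE 0.16, adjusted p = 0.663, edgeR) with the GC trend removed. Leaving out 1 library gave 0.40 (without Erastin replicate 1) to 1.05 (without DMSO replicate 2), and without DMSO replicate 1 it was 0.41. MXD1 had 189, 287 and 267 counts with Erastin against 210, 165 and 229. In the fit with the GC trend removed the groups of MXD1 did not overlap, at 0.44 (SE 0.13, adjusted p = 0.556, edgeR), and without that step they did (0.32, SE 0.20).

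MXI1, MXD3, MNT and MGA had log2 fold changes of 0.09, 0.46, 0.41 and -0.22, each with overlapping groups. After removal of the GC trend these were 0.20, 0.09, 0.08 and -0.08, and the groups of MXI1 no longer overlapped. In that fit the groups of 3 of 10 members did not overlap (MYCN lower, MXD1 and MXI1 higher), against 14.4% of all genes tested. By edgeR 0 of 10 members passed at an adjusted p under 0.05, 0 had an unadjusted p under 0.05 (2.64% of all genes tested), and DESeq2 also called 0. With the GC trend removed, 3 had an unadjusted p under 0.05, namely MXD1, MXD4 and MXI1, where 6.89% of all genes tested did. Of all 16258 genes tested in KELLY, 0.00615% passed, which is 1 gene. At the looser rule of the study (a fold of at least 1.5 with an unadjusted p not above 0.05), 0 members and 2.03% of all genes tested passed. The median log2 fold change of the 10 members was 0.26 in this fit and 0.09 with the GC trend removed, while that of all genes tested was 0.01 and -0.02.

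**Figure D3:**
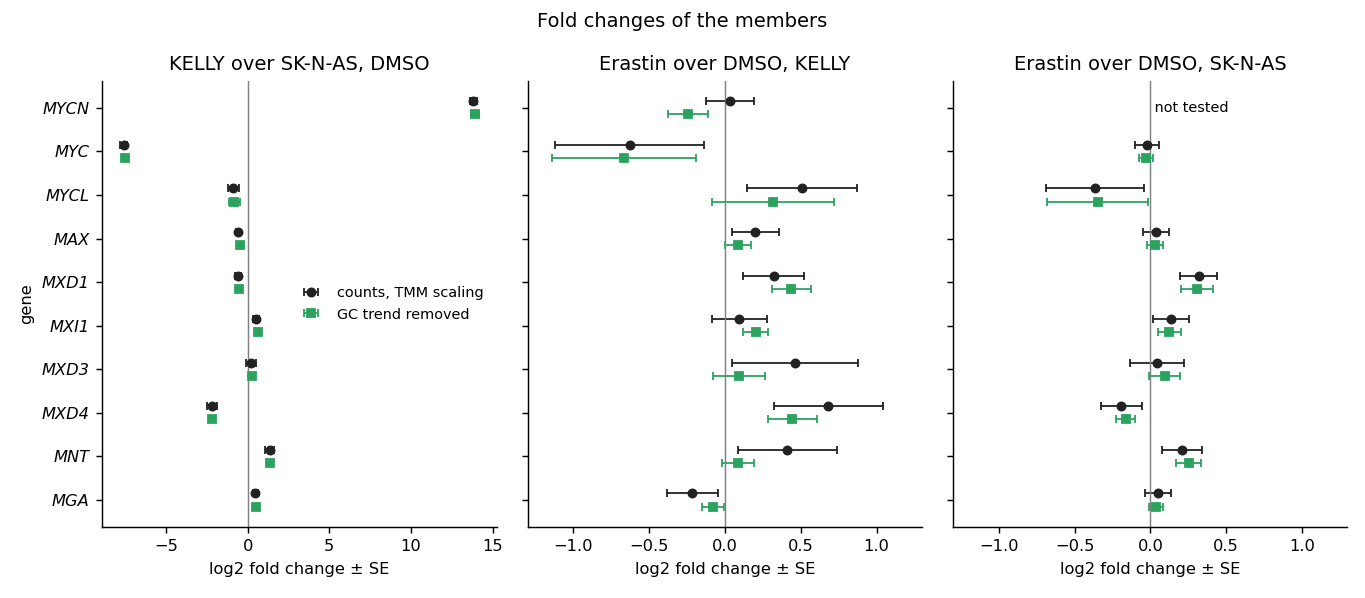
Log2 fold change and SE (x axis) of each member in KELLY over SK-N-AS with DMSO, in KELLY with Erastin and in SK-N-AS with Erastin (panels left to right, 3 samples a group), from counts in black and with the GC trend of each library removed in green. MYCN and MYC lie at 13.81 and -7.59 between the lines, whereas with Erastin all values lie between -0.67 and 0.68 and MYCN was under the filter on low counts in SK-N-AS.

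The spread of the repressors in KELLY moved with the GC content of the libraries. Spearman's correlation between GC content and the log2 ratio of a library to its line's mean, over 12024 genes that are not independent replicates, was -0.83, 0.70 and -0.47 in the DMSO samples and 0.86, -0.66 and 0.25 in the Erastin samples. The longest transcripts of MXD3, MNT and MXD4 hold 61.3%, 61.3% and 57.6% GC. All 3 genes were lowest in DMSO replicate 1 and highest in Erastin replicate 1, the libraries at the ends of that trend, with log2 deviations from the mean of the line of -1.03 and 0.85 for MXD4 and -0.87 and 0.66 for MNT. MGA, with 42.2% GC, had the opposite order, at 0.26 and -0.35 in the same libraries.

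Removing the trend lowered the SD within groups from 0.51 to 0.13 (log2) for MNT, from 0.66 to 0.25 for MXD3, from 0.57 to 0.26 for MXD4, and from 0.19 to 0.05 for MGA. It left that of MYCN, with 56.9% GC, at 0.18 against 0.21. In SK-N-AS the SD of MNT fell from 0.19 to 0.06 and that of MXD4 from 0.24 to 0.11. The SD went the other way for MXD1 in SK-N-AS, from 0.13 to 0.14, and for MYCL, from 0.40 to 0.44 in SK-N-AS and from 0.31 to 0.41 in KELLY.

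**Figure D4:**
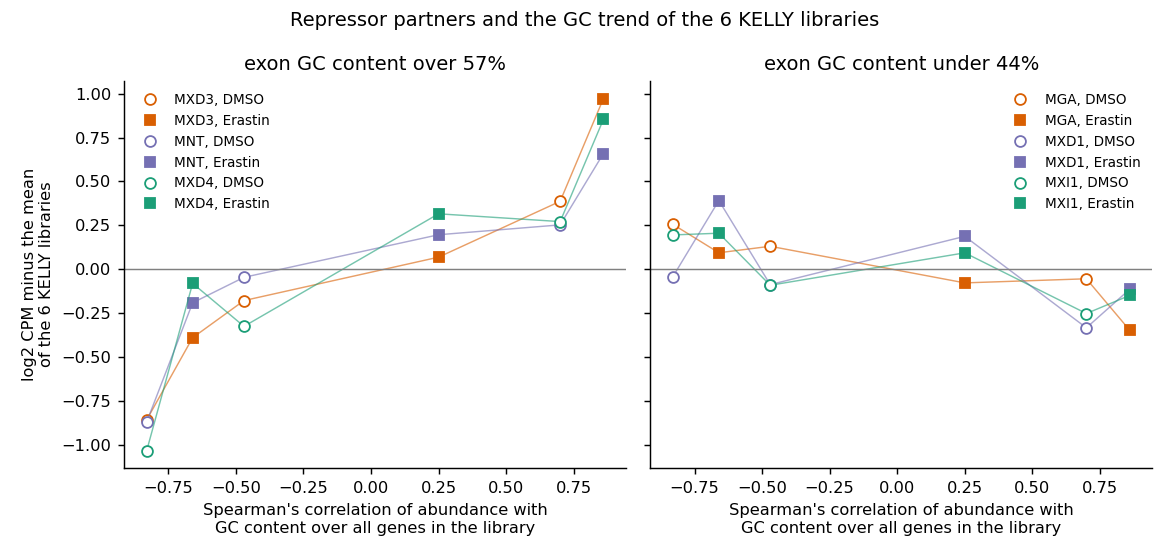
Log2 CPM of 6 repressor genes relative to the mean of the 6 KELLY libraries (y axis) against the library's own correlation of abundance with GC content (x axis), with open circles for DMSO and filled squares for Erastin. MXD3, MNT and MXD4 are lowest in the library at -0.83 and highest in that at 0.86, and MGA has the opposite order, at 0.26 and -0.35.

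In SK-N-AS the dominant gene, MYC, did not pass the threshold and stood at nearly the same level. It had 3731, 4117 and 3535 counts with Erastin, which scaled to 138, 140 and 138 CPM, within the range of 132 to 147 CPM with DMSO. The log2 fold change was -0.02 (SE 0.08, 95% interval -0.18 to 0.14, adjusted p = 0.970, edgeR). MAX had 1613, 1927 and 1531 counts with Erastin and a log2 fold change of 0.04 (SE 0.09), again with overlapping groups. MYCL had 37, 19 and 24 counts with Erastin (log2 fold change -0.36, SE 0.32).

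MYCN, already near the limit of detection in SK-N-AS, was lower still with Erastin. The 3 Erastin samples had 2, 3 and 1 counts and the 3 DMSO samples 11, 7 and 11, so that the groups did not overlap. It was under the filter on low counts and was not tested in the main fit. The summed counts, 6 against 29, gave a ratio of 0.200 after scaling to library size, with an exact 95% interval of 0.0680 to 0.491 that covers counting error only. Leaving out any 1 library gave ratios between 0.157 and 0.243. A fit with no filter gave a log2 fold change of -2.25 (SE 0.79, adjusted p = 0.245, edgeR).

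Of the 9 members tested in SK-N-AS, MXD1 was the one whose groups did not overlap, with 340, 459 and 374 counts after Erastin against 314, 269 and 325. In CPM its Erastin samples all exceeded its DMSO samples, as in 14.8% of all genes tested in which the groups did not overlap, and the log2 fold change was 0.32 (SE 0.12, unadjusted p = 0.0231, adjusted p = 0.442, edgeR). MXD4 had 2718, 3355 and 2314 counts with Erastin against 3753, 3023 and 2451, which overlapped. Its log2 fold change was -0.19 (SE 0.14, adjusted p = 0.784, edgeR), and without DMSO replicate 3 it was -0.34 and passed (adjusted p = 0.0267, edgeR).

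MNT had 466, 499 and 401 counts against 454, 376 and 313, with a log2 fold change of 0.21 (SE 0.13), and 0.25 without overlap once the GC trend was removed (SE 0.08, adjusted p = 0.0865, edgeR). In that fit the groups of 2 of 9 members, MXD1 and MNT, did not overlap, against 25.1% of all genes tested. The values of MXI1, MXD3 and MGA lay between 0.04 and 0.13. By edgeR 0 of the 9 members tested passed at an adjusted p under 0.05, 1 had an unadjusted p under 0.05 (MXD1, against 8.77% of all genes tested), and DESeq2 also called 0. With the GC trend removed 0 passed, and 3 of the 9 had an unadjusted p under 0.05, where 20.1% of all genes tested did. Of all 16095 genes tested in SK-N-AS, 0.659% passed. The median log2 fold change was 0.04 over the 9 members and -0.01 over all genes tested.

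The difference between the responses of the lines was tested directly in 1 fit over all 12 samples. By edgeR 0 of 10 members passed, 1 had an unadjusted p under 0.05 (4.25% of all genes tested), and DESeq2 called 0, where 0.00548% of the 18239 genes tested passed. The member with a low unadjusted p was MYCN, with a response in SK-N-AS minus KELLY of -2.29 on the log2 scale (SE 0.44, unadjusted p = 0.00021, adjusted p = 0.481, edgeR). This value rests on the 29 and 6 MYCN counts of the SK-N-AS groups, and MYCN passed the filter of this fit only through KELLY. Its SE was below that of the unfiltered SK-N-AS fit given above, so the unadjusted p was not read as support for a difference. Over the alternatives the adjusted p of MYCN ranged from 0.0521 to 1.00. For MXD4 the difference was -0.88 (SE 0.42, adjusted p = 0.811, edgeR), and for MYC 0.60 (SE 0.35, adjusted p = 0.811, edgeR).

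Other genes of the network were described from 5 lists written from general knowledge, but with earlier results of these data known. The lists are therefore a description and not a separate test. Of 66 MYC-activated growth and ribosome biogenesis genes tested between the untreated lines, 28 were higher and 15 lower in KELLY, beside backgrounds of 30.9% and 30.3%. Their median log2 fold change was 0.16, and that of all genes tested 0.02. CDC25A, a phosphatase that drives entry into S phase, was 2.24 higher (SE 0.17, adjusted p = 6.2e-06, edgeR), and TMEM97, a sterol-binding membrane protein, 2.12 higher (SE 0.13). RRP9, which acts in ribosomal RNA processing, was 1.85 higher, ODC1, the first enzyme of polyamine synthesis, 1.79 higher, and GNL3, the nucleolar protein nucleostemin, 1.51 higher on the same scale (SE 0.24, 0.11 and 0.13). The genes of this list with the E-box in a promoter window had a median of 0.18 over 27 genes and those without it 0.36 over 26 genes.

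Of 12 genes known to be repressed by MYC or MYCN, 0 were higher and 7 lower in KELLY by edgeR, beside the same backgrounds, and their median log2 fold change was -1.41. DESeq2 also called 0 higher and 7 lower. By edgeR 7 of the 12 had an unadjusted p under 0.05, where 65.1% of all genes tested did. With the GC trend removed, 2 of the 12 were higher and 7 lower, beside backgrounds of 38.8% and 35.0% in that fit. TGM2, a transglutaminase, was -7.08 (SE 0.31), and DKK3 and DKK1, secreted proteins of the Dickkopf family, -2.80 and -2.43 (SE 0.21 and 0.15). CDKN2B, an inhibitor of the kinases of G1 phase, was -3.57 (SE 0.63). It had 0, 5 and 3 counts in KELLY with DMSO and 35, 37 and 28 in SK-N-AS with DMSO. CDKN2B thus passed the filter on low counts only through SK-N-AS, and the size of its difference rests on few counts. NDRG1, a stress-responsive gene that MYCN is known to repress, was -2.79 (SE 0.21). The summed markers of the mesenchymal state moved in the same direction between the lines, and their part in these differences was not tested.

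Among 11 genes of the MGA-containing PRC1.6 complex, a Polycomb complex that silences germline genes, 5 were higher and 2 lower in KELLY, with a median of 0.31, where 30.9% of all genes tested were higher and 30.3% lower. L3MBTL2 and E2F6, subunits that bring the complex to chromatin, were 1.66 and 1.58 higher (SE 0.18 and 0.18). TFDP2, YAF2 and PCGF6, other parts of it, were 0.98, 0.97 and 0.92 higher (SE 0.13, 0.25 and 0.20). Of 29 MYC cofactors and regulators of MYC protein, 8 were higher and 6 lower, with a median of 0.10, beside the same shares.

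Among these cofactors the differences were 1.59 (SE 0.16) for HDAC2, a deacetylase of the MXD repressor complexes, and 1.56 (SE 0.15) for USP28, which protects MYC from degradation. NCOR1, a nuclear corepressor, was 1.18 (SE 0.13), and CDK9, the elongation kinase, was -1.23 (SE 0.18). In the parallel MLX arm of the network, 4 of 5 genes were tested. TXNIP, a glucose-responsive target of that arm, was 0.75 higher in KELLY (SE 0.14) and MLXIP, which pairs with MLX, -0.62 (SE 0.17).

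**Figure D5:**
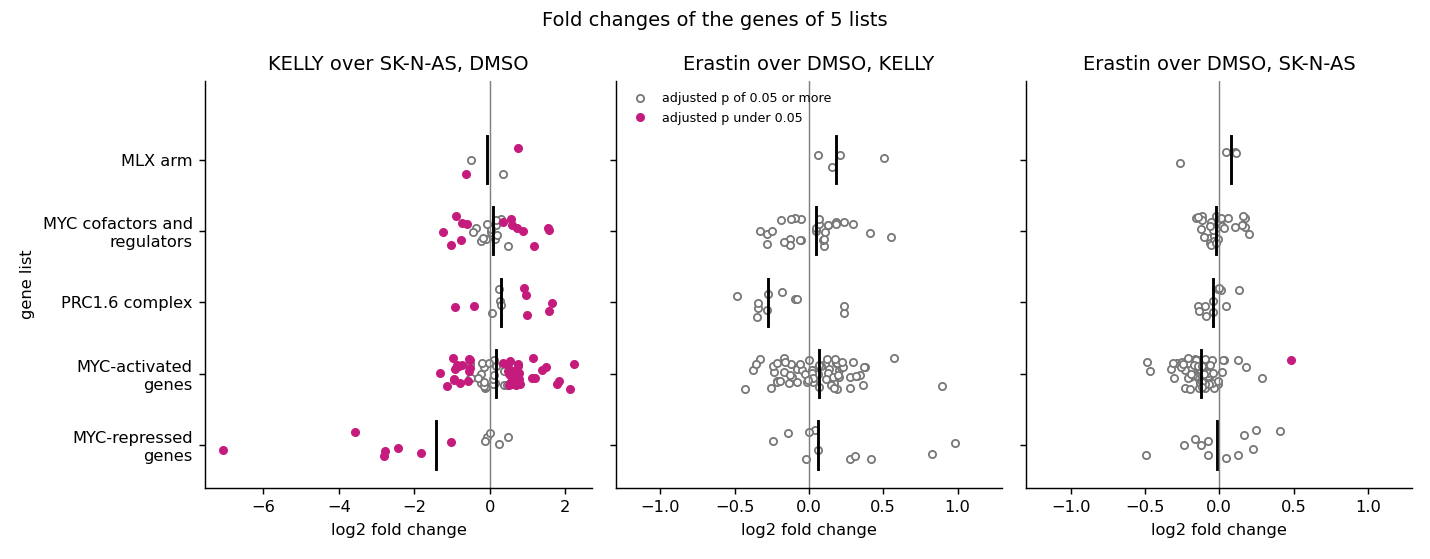
Log2 fold change (x axis) of each gene tested in the 5 lists (rows), in KELLY over SK-N-AS with DMSO, in KELLY with Erastin and in SK-N-AS with Erastin, with filled points for an adjusted p under 0.05 (edgeR) and black bars for the medians. The repressed list has its median at -1.41 between the lines, and the MYC-activated list has 1 filled point, TFRC, with Erastin in SK-N-AS.

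With Erastin in KELLY, 0 genes of any of the 5 lists passed by edgeR or DESeq2. The genes tested were 4 of the MLX arm, 29 cofactors, 11 of PRC1.6, 66 MYC-activated and 11 repressed. By edgeR 4 of them had an unadjusted p under 0.05, where 2.64% of all genes tested did. These were CDKN1A, the p53 target that encodes p21, at 0.98 (SE 0.28, adjusted p = 0.770, edgeR), NDRG1 at 0.83 (SE 0.25), TXNIP at 0.50 (SE 0.15) and HK2, a hexokinase of glycolysis, at 0.38 (SE 0.13). CDKN1A was 0.70 and passed with the GC trend removed (SE 0.09, adjusted p = 0.0235, edgeR), where 0.197% of all genes tested passed. The medians of the MYC-activated and the repressed lists were 0.07 and 0.06, and that of the MYC-activated list was -0.03 with the GC trend removed. PRC1.6 genes had a median of -0.28, or -0.13 with the GC trend removed, and 9 of 11 lay below 0 in the fit of the counts, without any passing.

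With Erastin in SK-N-AS, 1 of 66 MYC-activated genes passed, beside the background of 0.659%. It was TFRC, the transferrin receptor for iron uptake, which is also known to respond to iron supply. TFRC had 14382, 15335 and 13778 counts with Erastin against 9368, 9552 and 11232 with DMSO, without overlap, at 0.48 (SE 0.09, adjusted p = 0.0215, edgeR). The call was lost without DMSO replicate 2 or any 1 of the Erastin replicates 1, 2 and 3 (adjusted p = 0.199, 0.142, 0.095 and 0.14, edgeR), while the log2 fold change stayed between 0.47 and 0.50 in these fits. It was also lost in 1 fit over all 12 samples (adjusted p = 0.892, edgeR).

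Of the same 66 genes, 59 had values below 0, and the median was -0.12 against -0.01 for all genes tested. By edgeR and DESeq2 0 of them passed as lower, and 14 of the 66 had an unadjusted p under 0.05 in either direction, where 8.77% of all genes tested did. With the GC trend removed, 14 were lower and 1 higher, beside backgrounds of 3.41% and 2.53% (5.95% together) in that fit. In the other lists 0 genes passed by edgeR or DESeq2. The largest of their values with an unadjusted p under 0.05 were 0.41 (SE 0.12) for TGM2 and -0.50 (SE 0.21) for NGFR, a neurotrophin receptor gene that MYCN is known to repress. With the GC trend removed, 2 of 12 repressed genes passed as higher, among them TGM2 at 0.42 (adjusted p = 0.0011, edgeR). MLX at -0.26, 1 of 4 genes of its list, and TFDP1 at -0.15, 1 of 11, passed as lower (adjusted p = 0.0372 and 0.0458, edgeR). Of the 29 cofactors 0 passed, and of all genes tested 5.95% did in that fit.

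The genes whose levels over the 12 samples were most like those of MYCN and MYC were found among 18238 genes by the root mean square difference of centered log2 CPM, where a smaller value means a closer match. For MYCN these were DLK1, CLSTN2, TRIM29, IGF2BP1 and GRIK3, with differences of 1.18 to 1.67. For MYC they were COL1A1, S100A16, NEK6, LINC00221 and LOXL2, with differences of 0.282 to 0.406. Both patterns are dominated by the difference between the lines, and the 12 samples come from 2 cell lines only.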

How the data were processed

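RNA-seq of 12 samples, 3 in each of 4 groups, was used as the raw gene counts that the authors deposited, 1 table per line. Per the study's methods, reads were trimmed with Trimmomatic, mapped to GRCh38 and counted with HTSeq over GENCODE genes, and tested with DESeq2. The aligner and the strand used in counting were not given in the sources used here. Total counts per sample are given in the report, and the intervals on sums of counts cover counting error only.

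The members and the gene lists were chosen with earlier results of these data known. Groups came from the sample labels. Counts were fitted with edgeR 4.0.16 (filterByExpr, TMM scaling, quasi-likelihood test) in R 4.3.3, each line alone for Erastin against DMSO, the DMSO samples for KELLY against SK-N-AS, and all 12 samples for the difference of the responses, with Benjamini-Hochberg adjustment over all genes tested and a threshold of 0.05. The fits were tested on simulated data. The SE given with edgeR was the absolute log2 fold change divided by the square root of the F statistic. It is therefore an approximate error that follows from the test, and the intervals on log2 fold changes rest on it. The looser rule took a fold of at least 1.5 with an unadjusted p not above 0.05. The GC trend of each library was a loess curve (span 0.5, degree 2) of its log2 ratio to the mean library on GC content. The GC content of a gene was that of its longest transcript. The curve was fitted over genes whose mean log2 CPM reached 1 and was used as an offset. Levels per length were TMM-scaled CPM divided by the kilobases of all annotated exons. Lengths, GC content and exon overlaps came from GENCODE release 44 (GRCh38), a later release than the one the authors counted over. Alternatives were RLE scaling, library size alone, DESeq2 1.42.0, protein-coding genes alone, no filter, a minimum of 10 counts in every sample, GC correction, a replicate block, all 12 samples in 1 fit, leaving out each library, and the longest transcript as length. All 10 members were named, and for each list up to 5 genes that passed with the largest change or, where none passed, up to 2 with the smallest p. For MYCN and MYC the 5 genes of the most similar pattern were named, from log2 CPM with a prior count of 2. Some genes of the lists are not reported here by name.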

Additional observations from a re-analysis of the deposited data

How the results depend on the processing

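Between the lines, MYCN, MYC, MAX, MXD4 and MNT kept their direction and their call in every alternative that tested them, and MXD3 was called in none. MYCN, with 11, 7 and 11 counts in SK-N-AS with DMSO, passed the filter of the main fit only through KELLY. It was not tested with at least 10 counts in every sample, so its call rests on 14 alternatives. With 3 samples a group, the SE of a member's response in KELLY ran from 0.15 to 0.49 on the log2 scale, and differences of that size were not detectable. In KELLY with Erastin, 1 gene passed at an adjusted p under 0.05, against 31 with DESeq2, 19 with no filter, 32 with the GC trend removed, 17 in 1 fit over all 12 samples and 0 to 2 without any 1 library. At the looser rule 330 genes passed, against 980 with no filter, 194 among protein-coding genes, 767 in the fit over all 12 samples and 197 to 996 without any 1 library. In SK-N-AS 106 passed, 69.8% of them higher, against 223 (50.2% higher) with DESeq2, 265 with no filter, 957 (42.6% higher) with the GC trend removed, 46 in the fit over all 12 samples, and 53 to 855 without any 1 library, namely 53 without DMSO replicate 2 and 855 without DMSO replicate 3. At the looser rule 429 passed there, against 851 with no filter. For the difference of the responses 1 gene passed, against 12 with DESeq2, 8 with no filter, 14 with the GC trend removed and 1 to 3 without any 1 library. At the looser rule it was 644, against 1723 with no filter, 312 with at least 10 counts in every sample and 496 to 1694 without any 1 library. With the longest transcript as length, the log2 ratio of MYCN to MYC with DMSO was 13.4 for KELLY and -8.11 for SK-N-AS. The cause of these shifts was not tested.

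Same-numbered samples did not pair, with correlations of their deviations of -0.49 to -0.04 between the KELLY groups and -0.01 to 0.12 between the SK-N-AS groups. With a replicate block, 0 genes passed in KELLY (5 with the GC trend removed as well), 308 in SK-N-AS (1610) and 0 for the difference of the responses (4). At the looser rule the block gave 114 genes in KELLY (198 with the GC trend removed as well) and 400 for the difference. Under the block the calls between the lines were lost for MYCL, MXD1, MXI1 and MGA (adjusted p = 0.102, 0.0585, 0.0812 and 0.0552, edgeR). MXD4 passed in SK-N-AS with Erastin with the block and the GC trend removed, at -0.16 (adjusted p = 0.0209, edgeR).

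No value of a member that changed sign had passed the threshold. In KELLY with Erastin, MYCN was -0.24 with the GC trend removed and -0.23 with the block as well, and leaving out 1 library gave -0.13 to 0.15 for MYCN, -0.0027 to 0.23 for MXI1 and -0.012 to 0.80 for MXD3. In SK-N-AS, leaving out 1 library gave -0.067 to 0.0065 for MYC, -0.0013 to 0.062 for MAX and -0.12 to 0.23 for MXD3, and between the lines -0.12 to 0.49 for MXD3. For the difference of the responses, MXD1 was 0.0023 with library size alone, MXI1 -0.0044 with no filter, -0.079 with the GC trend removed and -0.075 with the block as well, MXD3 0.0086 and 0.019, and MNT 0.18 and 0.17 in the same pair of settings. Leaving out 1 library there gave -0.14 to 0.12 for MXD1, -0.096 to 0.18 for MXI1, -0.77 to 0.044 for MXD3 and -0.46 to 0.055 for MNT.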
